A study of Mus musculus with 3 samples.

Results

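The genes described here encode the subunits of the mitochondrial respiratory chain and ATP synthase, together with the assembly factors of complex I. They were chosen by gene symbol, as every feature whose name begins with Ndufa, Ndufb, Ndufc, Ndufs, Ndufv, Uqcr, Cox4i, Cox5, Cox6, Cox7, Cox8, Atp5, mt-Nd, mt-Co, mt-Atp or mt-Cyt. The rule took 102 of the 31053 features of the tables, 89 of them nuclear-encoded on 19 chromosomes and 13 encoded in mitochondrial DNA. Of the nuclear-encoded features, 87 had at least 1 UMI (a unique molecular identifier, counted once per captured transcript). Ndufa4l2 and a duplicate Atp5o entry (ENSMUSG00000116933) had none.

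Single-cell RNA-seq was run on hippocampal myeloid cells of mice in 3 droplet runs, which the labels place in a single group. All animals carried Cx3cr1CreERT2/+, Rosa26tdTomato/+ and NestinTK-eGFP/+ and received tamoxifen at 100 mg/kg on 4 days, so every cell shares that treatment. The tamoxifen-dependent Cre is driven by Cx3cr1, which microglia and related macrophages express, and viable tdTomato-positive cells were sorted after myelin had been removed on magnetic columns. The 12 animals, 6 male and 6 female, are not assigned to runs in the labels, so each run is a pool. P-values rest only on the spread between the 3 runs, which may be technical. That spread was pooled over genes in nearly all comparisons, so a small p-value or SE does not measure how consistent that gene was between runs.

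The runs held 7255, 6895 and 6226 barcodes, of which 6993, 6720 and 6078 had at least 1000 UMIs, 500 genes and at most 10% of UMIs on mt- genes. Median depth in those cells was 4425, 3438 and 3696 UMIs. The microglial genes P2ry12, Tmem119 and Cx3cr1 were found in 98.1% to 99.4% of kept cells, which matches the sorted population. Pairs of runs shared 7 or 8 barcodes. Cells were sorted by marker genes into 12 gates, and every comparison was made within runs on summed UMIs, with the run as a block, in edgeR's quasi-likelihood test. The reference was 6560, 6463 and 5451 microglia that met no other gate.

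In oxidative phosphorylation, complexes I to IV of the inner mitochondrial membrane pass electrons to oxygen, complexes I, III and IV pump protons as they do so, and complex V, the ATP synthase, makes ATP from the gradient. Complexes I, III, IV and V are built from subunits of both genomes: mitochondrial DNA supplies membrane-embedded core subunits, and the nucleus supplies the remaining core subunits, the accessory subunits and the assembly factors. Mitochondrial protein genes are transcribed as long precursors that are cut into single messages, whereas each nuclear gene has a promoter of its own. In microglia, the balance of oxidative phosphorylation and glycolysis is known to shift with activation.

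By complex, the nuclear and mitochondrial features numbered 36 and 7 for complex I (NADH dehydrogenase), 8 and 1 for complex III (cytochrome c reductase), 20 and 3 for complex IV (cytochrome c oxidase) and 17 and 2 for complex V. A further 8 nuclear features encode complex I assembly factors. The 13 mt- features are all the mt- genes of the tables, so the limit of 10% on mt- UMIs per cell is also a limit on their sum.

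Promoter windows of the nuclear members, which sit on 19 chromosomes, were searched for the letters of known motifs. Whether these motifs bear on the differences between populations was not tested. RefSeq (GRCm38.p6, the assembly also called mm10) gave windows from 250 bases before to 50 after the start for 71 of the 88 nuclear symbols, 76 windows in all. The palindrome GCGCATGCGC, a binding motif of nuclear respiratory factor 1 (NRF1), was found in 7 of these windows (9.21%), against 0.971% of all 32851 windows of the same length. The letters AAGATGGC, a YY1 motif, stood in 13.2% of member windows and 2.75% of all windows. For the cyclic AMP response element TGACGTCA the shares were 5.26% and 1.79%, and for the ETS motif CCGGAAGT 6.58% and 3.89%. Both strands were searched. A match is a run of letters, not a measured site. The 5 NRF1 matches that lie wholly before the start are printed 5′ to 3′ on the gene's strand, with the motif in capitals.
Atp5g2 (chr15:102671055-102671114, minus strand): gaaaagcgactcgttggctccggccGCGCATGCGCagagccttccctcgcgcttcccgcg
Atp5k (chr5:108434415-108434474, minus strand): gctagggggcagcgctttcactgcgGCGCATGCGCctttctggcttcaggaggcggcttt
Cox6a1 (chr5:115349086-115349145, minus strand): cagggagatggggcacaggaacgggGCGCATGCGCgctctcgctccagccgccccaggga
Ndufa11 (chr17:56717677-56717736, plus strand): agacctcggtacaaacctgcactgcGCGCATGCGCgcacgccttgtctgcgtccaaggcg
Ndufaf4 (chr4:24897945-24898004, plus strand): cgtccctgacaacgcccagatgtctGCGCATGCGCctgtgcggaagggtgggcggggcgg
The motif begins 42 bases before the start in Atp5g2, 50 in Atp5k, 162 in Cox6a1, 60 in Ndufa11 and 113 in Ndufaf4. None of these printed matches overlaps a match of another searched motif.

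In reference microglia, the nuclear members together took 1.15%, 1.16% and 1.07% of all UMIs in runs 1, 2 and 3. The mitochondrial members took 2.76%, 2.23% and 2.74%. These shares are levels, as a percentage of the UMIs of the population in that run, and they are described without a test. Run 2 had the lowest mitochondrial share and the highest nuclear share, so populations are compared with the reference of the same run throughout.

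Among the populations tested gene by gene, both shares were higher than in the reference in all 3 runs in lipid-phagocyte cells, MHC class II-high cells, border macrophages and cycling cells. Lipid-phagocyte cells were cells with at least 3 genes of a list that included Spp1, Lpl, Cst7, Itgax, Igf1 and Fabp5, markers of microglia in disease and demyelination. They numbered 76, 60 and 35. Their nuclear members took 1.45%, 1.42% and 1.38% of UMIs, on average 1.26 times the reference level of the same run, and their mitochondrial members 4.09%, 3.41% and 4.67%, on average 1.57 times.

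MHC class II-high cells (20, 23 and 40 cells, with at least 5 UMIs of the 3 genes H2-Aa, H2-Ab1 and H2-Eb1) had nuclear shares of 1.37%, 1.64% and 1.63%. Their mitochondrial shares were 3.09%, 3.19% and 3.61%. The ratios to the reference averaged 1.38 for the nuclear and 1.29 for the mitochondrial members. Among the populations with 3 usable runs, this was the only one whose mean ratio was larger for the nuclear than for the mitochondrial members. The order did not hold in run 2, where mitochondrial members had 1.94 UMIs per nuclear-member UMI, against 1.92 in the reference. With cells gated at full depth and then thinned to equal depth, both mean ratios were 1.26.

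Border macrophages, defined by genes such as Mrc1, Pf4 and Cd163, had ratios of 1.23 and 1.37 (68, 35 and 54 cells). Cycling cells, defined by Mki67, Top2a and related genes, had ratios of 1.29 and 1.39 (40, 12 and 18 cells). Interferon-responsive cells, defined by Ifit and related genes, were near the reference, with ratios of 1.01 and 1.08.

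In chemokine-high cells, with at least 10 UMIs of Ccl3 and Ccl4, the mitochondrial share was higher in every run and the nuclear share was not. Their nuclear shares were 1.07%, 1.16% and 1.10%, a mean ratio of 0.984 that lay above the reference in 1 of 3 runs. Their mitochondrial shares were 3.57%, 2.89% and 3.20%, a mean ratio of 1.25 that lay above it in 3 of 3. The cells numbered 24, 30 and 42.

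Among gates that were not tested gene by gene, 2 with at least 10 cells in every run also had both shares above the reference in all 3 runs, as did the choroid plexus and the T and NK cell gates, with fewer cells in at least 1 run. Cells with RNA of astrocyte genes (87, 24 and 11 cells) had nuclear shares of 1.26%, 1.26% and 1.19% and mitochondrial shares of 4.74%, 3.61% and 3.60%. Cells with Emp3, Fxyd5 and Tnfsf13b (24, 12 and 16 cells) had nuclear shares of 1.31%, 1.35% and 1.08% and mitochondrial shares of 3.14%, 2.68% and 3.60%.

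**Figure D1:**
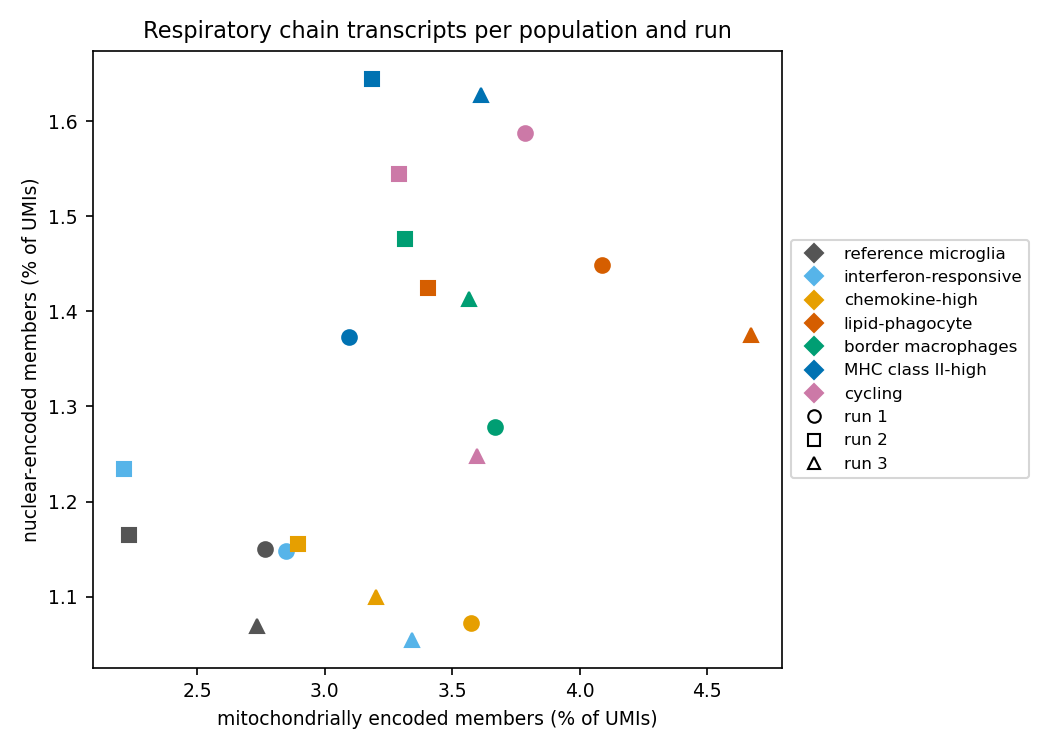
Share of all UMIs taken by the mitochondrially encoded members (percent, horizontal axis) and by the nuclear-encoded members (percent, vertical axis); each point is 1 population (colour) in 1 run (shape), and neither axis starts at 0. Chemokine-high cells lie at the height of reference microglia (1.07% to 1.16%) but to the right of the reference point of the same run, while lipid-phagocyte cells lie above and to the right of it.

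Depth moved with several of these gates. Median UMIs per cell were 6899, 5306 and 5615 in lipid-phagocyte cells against 4384, 3422 and 3650 in the reference, while chemokine-high cells, at 4470, 4157 and 4008, were close to it. Within reference microglia the nuclear share itself was higher in deeper cells, from 1.05%, 1.02% and 0.960% in the shallowest of 4 equal groups of cells to 1.20%, 1.24% and 1.13% in the deepest, with no test. When each cell was gated at full depth and then thinned to 2000 UMIs, the ratio of the nuclear share to the reference was 1.22 in lipid-phagocyte, 1.26 in MHC class II-high, 1.28 in border macrophage and 1.32 in cycling cells, and 0.971 in chemokine-high cells. The mitochondrial ratios were then 1.56, 1.26, 1.38, 1.45 and 1.20 in the same order. All of these except the chemokine-high nuclear ratio lay above the reference in 3 of 3 runs.

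In lipid-phagocyte cells, 44 of the 82 nuclear members tested were higher than in reference microglia and 1 was lower, and all 13 mitochondrial members were higher. Over all genes tested, 17.3% were called, 8.66% higher and 8.66% lower (adjusted p under 0.05 in edgeR). The median log2 difference was 0.38 over the tested nuclear members and 0.68 over the mitochondrial members, against -0.08 over all genes. With the nuclear members, 7 of 89 did not pass the filter on low counts. Here a mitochondrial difference is a difference in the abundance of each message relative to all UMIs, and more mitochondria and more RNA per mitochondrion cannot be told apart.

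Among mitochondrial members of complex I, mt-Nd1, a membrane-arm core subunit, had 2985, 2452 and 3978 CPM (a level, the gene's UMIs scaled to a common total of all UMIs) in lipid-phagocyte cells and 1697, 1351 and 1918 in the reference. The log2 difference was 0.95 (SE 0.07, adjusted p = 5.28e-38). The values of the groups did not overlap. For mt-Nd6, the only protein gene read from the light strand, the levels were 57.0, 21.0 and 52.0 CPM against 40.9, 10.5 and 30.3 (log2 difference 0.68, SE 0.25, adjusted p = 0.037). Its groups overlapped across runs, but each run's lipid-phagocyte value lay above that run's reference.

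Of the mitochondrial members of the later complexes, mt-Cytb, the heme-bearing core of complex III, had 4278, 3834 and 4932 CPM against 3112, 2857 and 3155. Its log2 difference of 0.56 (SE 0.07, adjusted p = 6.73e-14) was the smallest of the 13. mt-Co1, the catalytic subunit of complex IV, had 4947, 4062 and 5522 CPM against 3578, 2705 and 3266 (log2 difference 0.65). mt-Atp6, the proton channel subunit of ATP synthase, had 7304, 6103 and 8111 CPM against 4748, 3918 and 4727 (0.73). For mt-Cytb, mt-Co1 and mt-Atp6 every lipid-phagocyte value lay above every reference value. Messages of low level such as mt-Nd4l, mt-Nd3, mt-Nd5 and mt-Atp8 varied more between runs, and there the groups overlapped.

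**Figure D2:**
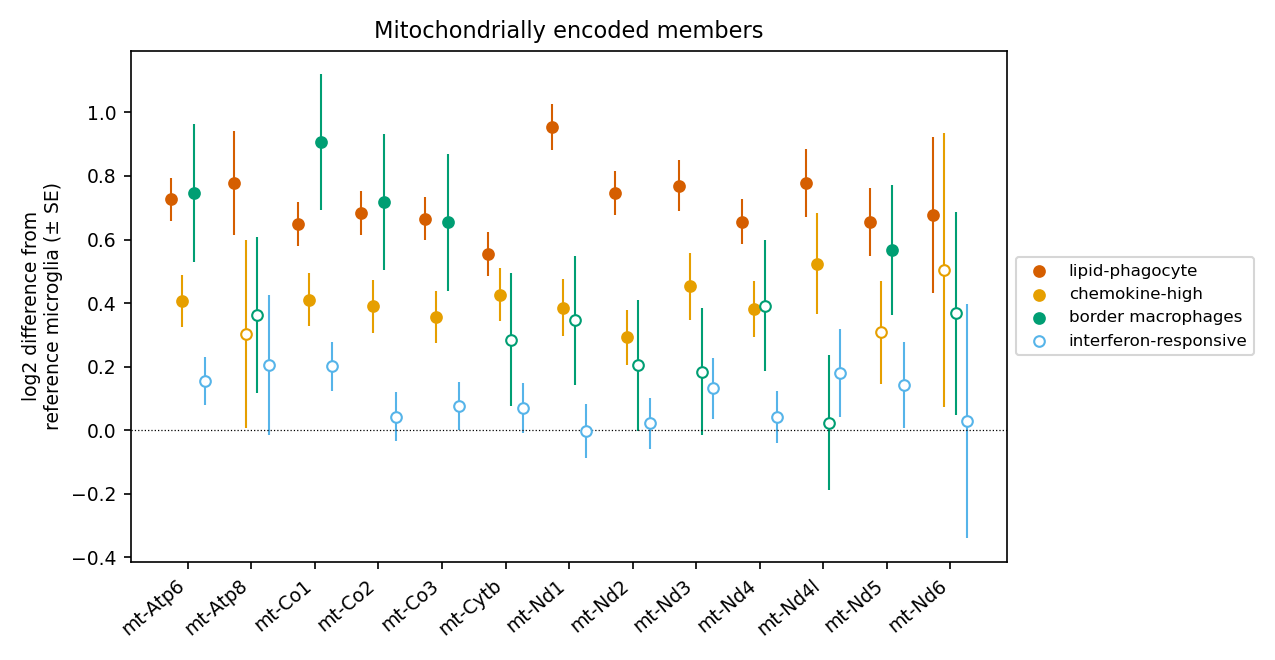
Log2 difference of each of the 13 mitochondrially encoded members from reference microglia in 4 populations (vertical axis; edgeR fit, bars are 1 standard error either way). Filled points have an adjusted p under 0.05 and open points do not. All 13 lie above 0 in lipid-phagocyte cells, from 0.56 for mt-Cytb to 0.95 for mt-Nd1, and in chemokine-high cells, from 0.29 to 0.52.

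The nuclear members that were higher in lipid-phagocyte cells were spread over the complexes. They numbered 16 of 36 tested for complex I, 3 of 8 for complex III, 12 of 14 for complex IV and 12 of 16 for complex V, and 1 of 8 for the complex I assembly factors. By role, the members classed as nuclear core subunits were 8, those of the matrix arm of complex I and the Rieske protein Uqcrfs1 of complex III. This class left out the F1 part of complex V, classed apart, and Cyc1 (cytochrome c1), which the symbol rule did not take. Of the accessory subunits 29 of 47 were higher, and of the core class 1 of 8. That core subunit was Ndufs8, which holds iron-sulfur clusters (log2 difference 0.47, SE 0.14, adjusted p = 0.00719). Ndufs1, the largest iron-sulfur subunit, had 48.4, 30.0 and 28.3 CPM against 41.9, 39.0 and 40.5, and did not pass the test.

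Complex V showed the c-ring, the rotor of the synthase, with all 3 of its genes higher. Atp5g1 had 257, 352 and 217 CPM against 149, 165 and 145 (log2 difference 0.91, SE 0.11, adjusted p = 1.74e-13), with no overlap. Atp5g3 had 89.8, 138 and 113 CPM against 82.3, 71.0 and 74.9 (0.57, SE 0.16, adjusted p = 0.00349), and Atp5g2 had 413, 394 and 406 against 311, 345 and 305 (0.39, SE 0.10, adjusted p = 0.00113). These 3 genes encode the same mature protein behind different import sequences. Of the F1 head, 3 of 5 genes were higher, among them the catalytic beta subunit Atp5b at 282, 403 and 288 CPM against 206, 241 and 213 (0.60, SE 0.11, adjusted p = 5.60e-07). In the membrane part and stalk, Atp5k, the e subunit that joins synthase dimers, and Atp5o, which binds the stator to F1, were higher by 0.82 and 0.63.

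In complex IV, the ubiquitous forms of the paired subunits were higher, not only the tissue form described further on. Cox4i1, the subunit that binds ATP, had 523, 634 and 694 CPM against 390, 445 and 418 (log2 difference 0.59, SE 0.09, adjusted p = 3.01e-09). Cox5b, which binds zinc, had 235, 297 and 231 CPM against 155, 181 and 142 (0.71, SE 0.12, adjusted p = 3.64e-08). In neither gene did the groups overlap. Cox6a1, Cox6b1, Cox7a2, Cox7b, Cox8a and Ndufa4, now counted as a complex IV subunit, were higher by 0.37 to 0.54.

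Cox7a2l was the only tested nuclear member that was lower. It encodes the factor that ties complex III to complex IV in supercomplexes. Its levels were 219, 171 and 142 CPM in lipid-phagocyte cells and 277, 271 and 282 in the reference, a log2 difference of -0.52 (SE 0.12, adjusted p = 0.000211). Every lipid-phagocyte value lay below every reference value. In complex I, the accessory subunits of the membrane arm Ndufb6 (0.80) and Ndufc1 (0.74) had the largest differences, and the assembly factor Ndufaf4 was higher by 0.63 (SE 0.20, adjusted p = 0.0134). Of the 7 genes with the NRF1 letters, 5 were called higher and Ndufaf5 and Uqcrc1 were not, beside the 44 of 82 nuclear members in all. The message of Nrf1 itself was lower, at 13.8 ± 4.52 CPM against 35.2 ± 3.35 (SD, n = 3 runs; log2 difference -1.42, edgeR adjusted p = 0.000532).

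These calls depended on the number of cells and reads. Without run 1, which held the most cells, 21 nuclear members were higher and 1 lower. After thinning each gated cell to 2000 UMIs, 10 nuclear members were higher and 1 lower, and 10 mitochondrial members were higher; thinned before gating, which left 17, 18 and 13 cells, no nuclear and 2 mitochondrial members were called, and without the run block 8 of each were. With the reference limited to the deepest of those 4 groups, 38 nuclear and 12 mitochondrial members were called. Markers of other myeloid cells were at or near 0 in this gate: all 4 dendritic cell and 3 neutrophil genes were at 0, and the monocyte genes summed to 5.18, 0 and 0 CPM. The border macrophage and MHC class II gates came first, so cells that met them had already been taken out. These low values are therefore partly set by the gate order.

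**Figure D3:**
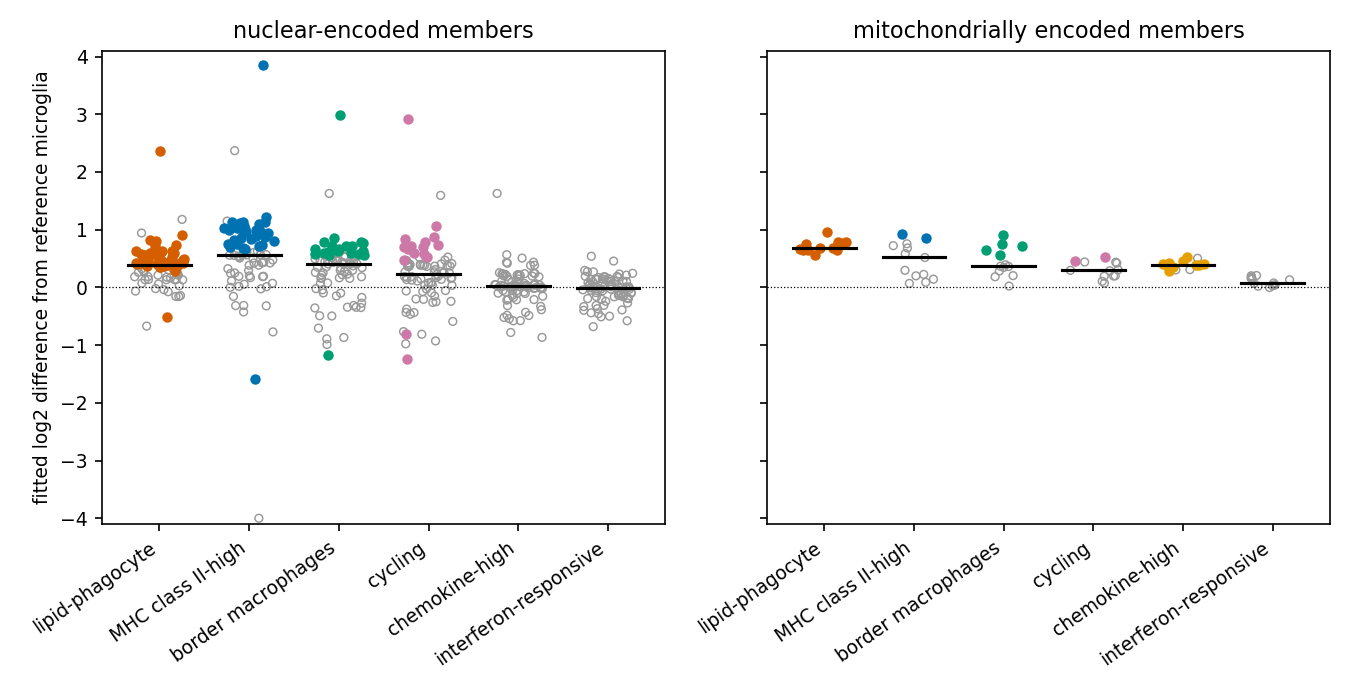
Fitted log2 difference from reference microglia (vertical axes) of every tested nuclear (left) and mitochondrial (right) member in each population; each point is 1 gene, filled where the adjusted p is under 0.05, and the bar is the median. Ndufaf5 in MHC class II-high cells, which had no UMI there, is drawn at the axis limit of -4. Most nuclear members lie above 0 in lipid-phagocyte and MHC class II-high cells and on both sides of 0 in chemokine-high and interferon-responsive cells.

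In chemokine-high cells mitochondrial members passed the test against the reference, and no nuclear member did (edgeR), in a gate of 24, 30 and 42 cells. Whether the changes of the nuclear and the mitochondrial members differ was not tested. None of the 82 nuclear members tested was called by edgeR or by DESeq2, and 7 had an unadjusted p under 0.05. In simulated counts for this gate, edgeR recovered 6% of genes changed 1.25-fold, 10% of those changed 1.5-fold and 52% of those changed 2-fold. Small nuclear changes could therefore be missed here. With cells thinned to 2000 UMIs before gating, 1 nuclear member was called. At full depth 10 of 13 mitochondrial members were higher. In this comparison 4.77% of all genes were called, 2.90% higher and 1.86% lower. The median log2 difference was 0.02 over the nuclear and 0.39 over the mitochondrial members, against -0.15 over all genes.

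mt-Cytb had 4291, 3961 and 3504 CPM in chemokine-high cells and 3112, 2857 and 3155 in the reference (log2 difference 0.43, SE 0.08, adjusted p = 3.05e-05). mt-Atp6 had 6079, 5461 and 5390 CPM against 4748, 3918 and 4727 (0.41, SE 0.08, adjusted p = 5.13e-05). Neither gene's groups overlapped. mt-Nd1 had 2241, 1640 and 2331 CPM against 1697, 1351 and 1918 (0.39, SE 0.09, adjusted p = 0.000979), with overlap across runs. The 3 genes that did not pass were mt-Nd5, mt-Nd6 and mt-Atp8.

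The mitochondrial calls depended on the filters and the runs. None was called when cells were held to at most 5% mt- UMIs, when cells were thinned to 2000 UMIs after gating, or without the run block, and without run 1 only 1 was called, without run 2 only 5. Immediate early genes also moved with this gate: the 6 genes summed to 1675, 2423 and 1929 CPM in these cells against 23.4, 38.6 and 349 in the reference. Part of that contrast is set by the gating. Cells with 3 or more of these 6 genes were kept out of the reference by a later gate, but not out of the chemokine gate. Of the chemokine-high cells, 7 of 24, 14 of 30 and 15 of 42 also met at least 1 later gate. The part of the immediate early genes in the result was not tested.

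Lipid-phagocyte and chemokine-high cells were also compared directly, a test added after the data were seen. Of 71 nuclear members that passed the filter, 3 were higher in lipid-phagocyte cells and 1 lower, and 3 of 13 mitochondrial members were higher. Among all 3266 genes tested, 8.60% were called, 3.46% higher and 5.14% lower. Cox5b had 235, 297 and 231 CPM in the first and 61.1, 168 and 150 in the second population (log2 difference 0.96, SE 0.24, adjusted p = 0.00135). Ndufb6, at 69.1, 84.1 and 80.3 CPM against 52.3, 22.0 and 10.7, and Ndufs5, at 161, 132 and 165 against 69.8, 95.2 and 64.3, were higher by 1.52 and 0.98. Cox7a2l, at 219, 171 and 142 CPM against 270, 315 and 241, was lower by 0.67 (SE 0.21, adjusted p = 0.0234), so its level in lipid-phagocyte cells was below that of both other populations.

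Of the mitochondrial members in the direct comparison, mt-Nd1 was higher by 0.56 (SE 0.12, adjusted p = 0.000182), mt-Nd2 by 0.45 and mt-Atp6 by 0.31. The remaining 67 nuclear members did not pass the test, although 64 of the 71 had a fitted difference above 0 and their median was 0.36. The 7 calls of this comparison became 1 without run 2, 2 without run 3 and 11 when Itgax was taken out of the lipid-phagocyte gate.

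In MHC class II-high cells, 33 of 82 nuclear members were higher and 1 lower, and 2 of 13 mitochondrial members were higher. Over all genes, 14.8% were called, 8.10% higher and 6.70% lower. Complexes IV and V held most of these members, with 11 of 14 and 11 of 16 higher, against 7 of 36 in complex I and 3 of 8 in complex III. The medians were 0.57 over the nuclear members, 0.52 over the mitochondrial members and -0.18 over all genes. Of the MHC class II-high cells, 9 of 20, 9 of 23 and 24 of 40 also met at least 1 later gate.

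Atp5g3, of the c-ring, had 159, 138 and 153 CPM against 82.3, 71.0 and 74.9 in the reference (log2 difference 1.22, SE 0.24, adjusted p = 1.33e-05). Cox5b had 242, 321 and 322 CPM against 155, 181 and 142 (1.14, SE 0.23, adjusted p = 1.61e-05), and Cox6c, another small accessory subunit of complex IV, had 484, 344 and 387 against 249, 209 and 206 (1.09). None of these groups overlapped. Ndufb6, Cox7b, Ndufaf8, Atp5e and Atp5l were higher by 1.07 to 1.13. Ndufaf7, a methyltransferase that acts in complex I assembly, was lower, at 15.1, 0 and 17.0 CPM against 40.3, 46.7 and 46.9 (-1.58, SE 0.49, adjusted p = 0.0125).

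Of the mitochondrial members, mt-Co1 was higher, at 4237, 5403 and 5885 CPM against 3578, 2705 and 3266 (0.92, SE 0.33, adjusted p = 0.0412), and so was mt-Atp8 (0.86, adjusted p = 0.0182). The 7 mitochondrial genes of complex I had fitted differences from 0.07 for mt-Nd4l to 0.58 for mt-Nd5, and none passed the test (edgeR). This gate also held RNA of other myeloid cells: the 3 monocyte genes summed to 204, 903 and 882 CPM and the 4 dendritic cell genes to 166, 99.5 and 713, with every gene of both lists detected, against at most 5.10 and 1.01 CPM in the reference. Their part in the result was not tested. Without run 3, which held 40 of the 83 cells, 14 nuclear members were called, and without run 2 16 were. Thinning to 2000 UMIs left 1 nuclear call when done after gating, 6 when done before it, and 7 when done before it with mt- UMIs left out of the library size.

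In border macrophages, the resident macrophages of meninges, perivascular spaces and choroid plexus, 20 of 83 nuclear members were higher and 1 lower. Of the mitochondrial members 5 of 13 were higher. Over all genes 12.9% were called, 7.56% higher and 5.32% lower. Complex IV held 9 of the nuclear members called higher, complex I held 8 and complex V held 3. Complex III held none of 8 (edgeR). The gates overlapped: 38 of 68, 17 of 35 and 25 of 54 border macrophages also met at least 1 later gate. They stand here because each cell went to the first gate it met.

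Cox6c had 342, 352 and 403 CPM in border macrophages against 249, 209 and 206 (log2 difference 0.85, SE 0.20, adjusted p = 0.000328). Cox8a, a small accessory subunit of complex IV, had 498, 851 and 601 CPM against 410, 408 and 379 (0.79, SE 0.20, adjusted p = 0.000954), and Ndufa5, of the matrix arm of complex I, had 136, 147 and 108 against 87.2, 80.3 and 75.5 (0.79). The groups of these genes did not overlap. Ndufaf7 was lower here too, at 22.4, 19.2 and 7.47 CPM against 40.3, 46.7 and 46.9 (-1.17, SE 0.35, adjusted p = 0.0106).

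The mitochondrial members called were mt-Co1, mt-Co2, mt-Co3, mt-Atp6 and mt-Nd5. mt-Co1 had 5662, 5354 and 5192 CPM against 3578, 2705 and 3266 (0.91, SE 0.21, adjusted p = 0.000372). By contrast, mt-Nd4l had a difference of 0.02 and mt-Nd3 of 0.18, and neither passed the test. In run 1, 20 of the 68 cells held at least 1 UMI of Xist and 1 of a Y-linked gene. So did 142 of the 1640 deepest and 12 of the 1640 shallowest reference cells of that run. Whether droplets with this mix held 2 cells was not tested. With all such cells left out, 35 nuclear members were higher and 1 lower. Without run 1, 36 nuclear members were called, without run 2 only 2, and without run 3 only 1. The shares of all genes called without each run are not given here.

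Cycling cells had 14 of 82 nuclear members higher and 2 lower, and 2 of 13 mitochondrial members higher. Over all genes 17.7% were called, 9.44% higher and 8.24% lower. Of the nuclear members 17.1% were called higher. Among them, Atp5g3 (log2 ratios 1.24, -0.22 and 1.04) and Ndufa1 (0.89, -0.37 and 0.77) lay below the reference in run 2. Cox7a2, the ubiquitous form of an accessory subunit of complex IV, had 385, 219 and 327 CPM against 180, 163 and 165 (0.78, SE 0.18, adjusted p = 0.000151). Atp5k had 286, 256 and 215 CPM against 153, 107 and 117 (0.84, SE 0.19, adjusted p = 0.000105). Neither overlapped with the reference. Ndufa4, Atp5j, Ndufa12 and Ndufb11 were higher by 0.69 to 0.73, and Ndufaf2, an assembly factor at a low level, by 1.07.

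The nuclear members that were lower in cycling cells were a core subunit and an assembly factor of complex I. Ndufs3, the core subunit, had 49.8, 85.2 and 43.0 CPM against 83.7, 108 and 80.7 (-0.81, SE 0.28, adjusted p = 0.0244), lower in each run but with overlap across runs. Ndufaf4, the assembly factor, had 16.6, 0 and 43.0 CPM against 48.2, 40.8 and 36.5 (-1.24, adjusted p = 0.0274), and in run 3 it was above the reference. mt-Nd1 and mt-Co1 were higher by 0.53 and 0.46. Without run 1, which held 40 of the 70 cells, 2 nuclear members were called. Thinning to 2000 UMIs left no nuclear call in edgeR when done after gating, 1 when done before it, and 6 when done before it with mt- UMIs left out of the library size.

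Interferon-responsive cells showed no member past the test. None of 82 nuclear and none of 13 mitochondrial members was called by edgeR or by DESeq2, in a comparison that called 2.13% of all genes, 1.76% as higher. At an unadjusted p under 0.05 there were 5 nuclear members and 2 mitochondrial members, mt-Co1 (log2 difference 0.20) and mt-Atp6 (0.15). The gate held 54, 26 and 33 cells.

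Female and male cells were compared within the reference microglia, taking cells with at least 2 Xist UMIs and no Y-linked UMI against cells with a Y-linked UMI. None of 95 members tested was called by edgeR or DESeq2, where 0.454% of all genes were. The unadjusted p was under 0.05 for 4 nuclear and no mitochondrial members, and the largest of these differences was -0.19 for Ndufaf2.

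The 4 populations with nuclear calls shared some of the members. Counting lipid-phagocyte, MHC class II-high, border macrophage and cycling cells, 33 nuclear members, the untested ones included, were called higher in none, 23 in 1, 14 in 2, 16 in 3 and 3 in all 4. These comparisons share the same reference sums, so the counts are not independent. Of all genes tested, 8.66%, 8.10%, 7.56% and 9.44% were called higher in the 4 comparisons, in that order. How many of all genes were shared in this way is not given here, so the sharing cannot be called particular to the members. The 3 genes called higher in all 4 were Cox6a1 and Cox7a2, the ubiquitous forms of complex IV subunits that also exist as muscle forms, and Ndufb8, of the membrane arm of complex I. Cox7a2 had log2 differences of 0.41, 0.96, 0.66 and 0.78 in that order of populations. Cox7a2l, by comparison, was at -0.52 in lipid-phagocyte cells and at 0.57 in MHC class II-high cells, where the adjusted p was 0.0931.

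Several complex IV subunits exist as paired isoforms, of which one is ubiquitous and the other belongs to heart and skeletal muscle, lung or testis. Cox6a2 is the heart and muscle form of subunit 6a. It had the largest nuclear difference in lipid-phagocyte cells, with 32.8, 45.1 and 33.1 CPM against 6.81, 9.79 and 5.43 in the reference (log2 difference 2.36, SE 0.35, adjusted p = 6.87e-10). The groups did not overlap. It was detected in each run, with UMIs in 16 of 76, 12 of 60 and 7 of 35 lipid-phagocyte cells.

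Those counts are 21.1%, 20% and 20% of lipid-phagocyte cells, against 2.82%, 2.97% and 1.89% of reference cells. After thinning every cell to 2000 UMIs the shares were 3.95%, 5% and 5.71%, which are 3 of 76, 3 of 60 and 2 of 35 cells, against 1.09%, 1.79% and 1.06%. In chemokine-high cells a single cell in each run had a Cox6a2 UMI, 4.17%, 3.33% and 2.38% of cells, at median depths of 4470, 4157 and 4008 UMIs. Their thinned shares were 0%, 3.45% and 2.44%. At equal depth the lipid-phagocyte share was above both in each run, but on 2 or 3 cells a run.

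**Figure D4:**
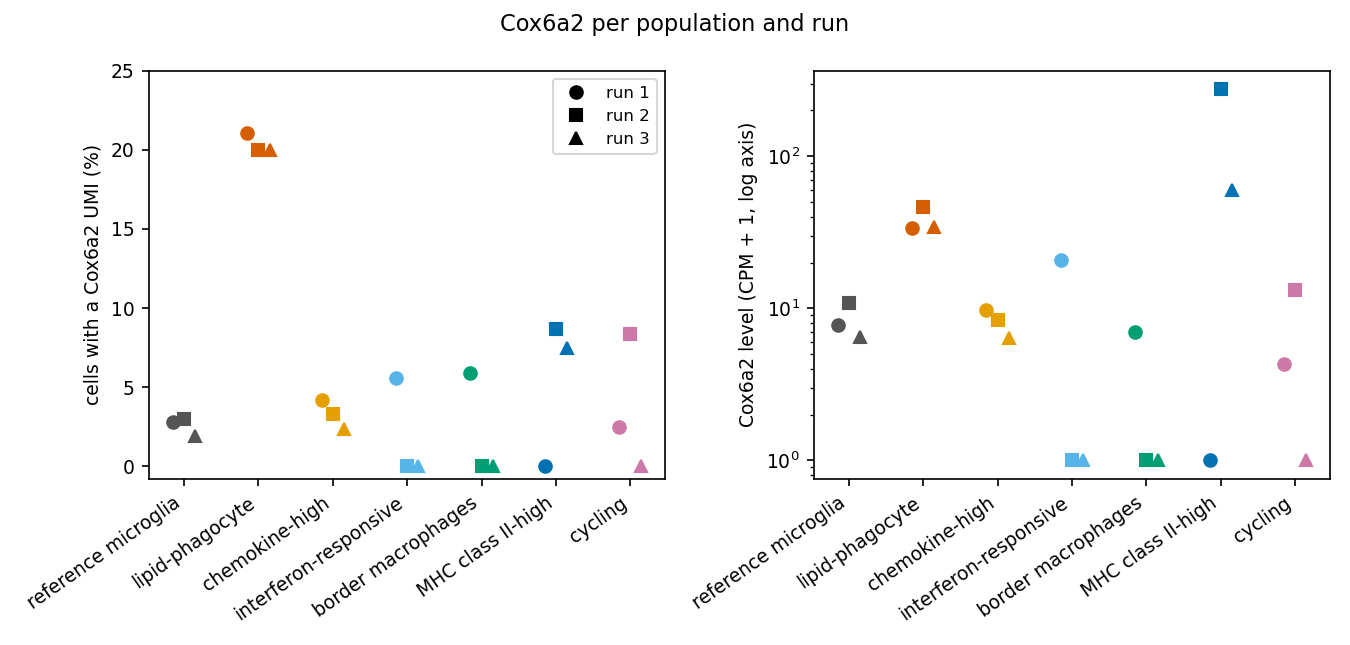
Share of cells with a Cox6a2 UMI (percent, left) and level of Cox6a2 (CPM with 1 added, log axis, right) in the gated populations; each point is 1 run, by shape. Lipid-phagocyte cells lie between 32.8 and 45.1 CPM in the 3 runs, and reference microglia between 5.43 and 9.79.

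Cox6a2 lies at chr7:128205435-128206387 on the minus strand in GRCm38.p6, within the span of Itgad (chr7:128154376-128223816, plus strand) and near Itgax (chr7:128129547-128150657, plus strand), which is a gene of the lipid-phagocyte gate. Itgad was at 0 CPM in lipid-phagocyte cells in all 3 runs. Itgam, an integrin gene of the same cluster, was lower (-0.43, adjusted p = 0.000325), and Armc5, on the far side, did not pass the test (-0.18). These neighbours were chosen after the Cox6a2 values were seen. With Itgax taken out of the gate, Cox6a2 was higher by 2.32, and 37 nuclear members were higher and 1 lower. In lipid-phagocyte cells without any Itgax UMI, 9 of 40, 8 of 33 and 2 of 23 held a Cox6a2 UMI. Whether the authors' counting used strand is not given in the sources used here.

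In MHC class II-high cells the fitted difference of Cox6a2 was larger, 3.86, but it rested on few cells. The levels were 0, 276 and 59.4 CPM. In run 2 the 36 UMIs came from 2 cells with 26 and 10, and in run 3, 19 of 21 UMIs came from 1 cell. DESeq2 gave an adjusted p of 0.264. In lipid-phagocyte cells no single cell held more than 3 of the 41 UMIs.

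The tissue isoforms Cox8b, Cox6b2 and Cox7a1 stood at their highest levels in the choroid plexus gate, which held 27, 28 and 4 cells and was not tested. Cox8b, the muscle form of subunit 8, had 45 of its 49 UMIs there, in 13 of 27, 6 of 28 and 1 of 4 cells, and its other 4 in the 18474 reference cells. Cox6b2, the testis form of subunit 6b, stood at 99.0 and 223 CPM in runs 1 and 2 of the choroid gate, and Cox7a1, the muscle form of subunit 7a, at 45.0 and 81.2, against 2.36, 3.01 and 2.24 and 0.491, 1.25 and 0.572 CPM in the reference. In run 2, 12 of the 22 Cox6b2 UMIs came from 1 choroid cell and 4 from the next, with UMIs in 5 of 28 cells. The nuclear members as a whole took 3.48% and 4.64% of UMIs in these choroid cells, the highest share of any gate with at least 10 cells in a run.

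Cox6b2 was also higher in cycling cells, at 16.6, 36.5 and 17.2 CPM (log2 difference 2.92, SE 0.77, adjusted p = 0.00168), on 10 UMIs in 8 of 70 cells. The call of Cox7a1 in border macrophages (2.99, adjusted p = 0.0376) rested on 5 UMIs and had none in run 2. Cox4i2, the lung form of subunit 4, had 11 UMIs in all cells, Cox7b2 had 2 and Cox8c had 1, and they were never tested.

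Reference microglia were next split into 4 equal groups by their mt- share within each run, to see whether nuclear members followed the mitochondrial ones among cells of no special state. For this comparison mt- genes were taken out of the library size. In the group of highest mt- share 50 of 82 nuclear members were higher than in the lowest, and none was lower (edgeR, at adjusted p under 0.05). Over all genes 10.2% were called, 6.35% higher and 3.83% lower. The median log2 difference was 0.18 over the nuclear members and -0.02 over all genes. By CPM of all UMIs, the values of most tested nuclear members overlapped between the groups. Some of the 50 went the other way in 1 run, such as Atp5j2 (log2 ratios 0.12, -0.08 and 0.13) and Ndufa8 (0.09, -0.16 and 0.13).

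The differences were small. Cox4i1 had 434, 493 and 479 CPM in the highest group and 354, 380 and 375 in the lowest (log2 difference 0.46, SE 0.03, adjusted p = 4.46e-37), with no overlap. The printed CPM count all UMIs, whereas the fit left mt- UMIs out and rescaled the sums, so the scales differ. By CPM the log2 ratios of Cox4i1 were 0.29, 0.37 and 0.35, all below the fitted value. Ndufa1, a membrane-arm subunit of complex I whose gene is on the X chromosome, had 117, 88.6 and 80.0 CPM against 85.7, 78.5 and 60.4 (0.47, SE 0.06, adjusted p = 2.42e-15), higher in each run but with overlap across runs. Uqcrh, the hinge protein of complex III, and Cox6c were both higher by 0.41. Cox7a2l was higher by 0.27 (log2 ratios of 0.10, 0.14 and 0.23 by CPM), the opposite sign to that in lipid-phagocyte cells.

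By complex, 22 of 36 tested genes were higher for complex I, 5 of 8 for complex III, 11 of 14 for complex IV and 12 of 16 for complex V. None of the 8 complex I assembly factors was called (edgeR), and of the 8 members classed as nuclear core subunits 1 was, against 36 of 47 accessory subunits. Cox6a2 did not pass (0.22, adjusted p = 0.546). Median depth was 4488, 3392 and 3704 UMIs in the highest and 4142, 3265 and 3478 in the lowest group. DESeq2 called 28 nuclear members, and without the run block none was called.

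**Figure D5:**
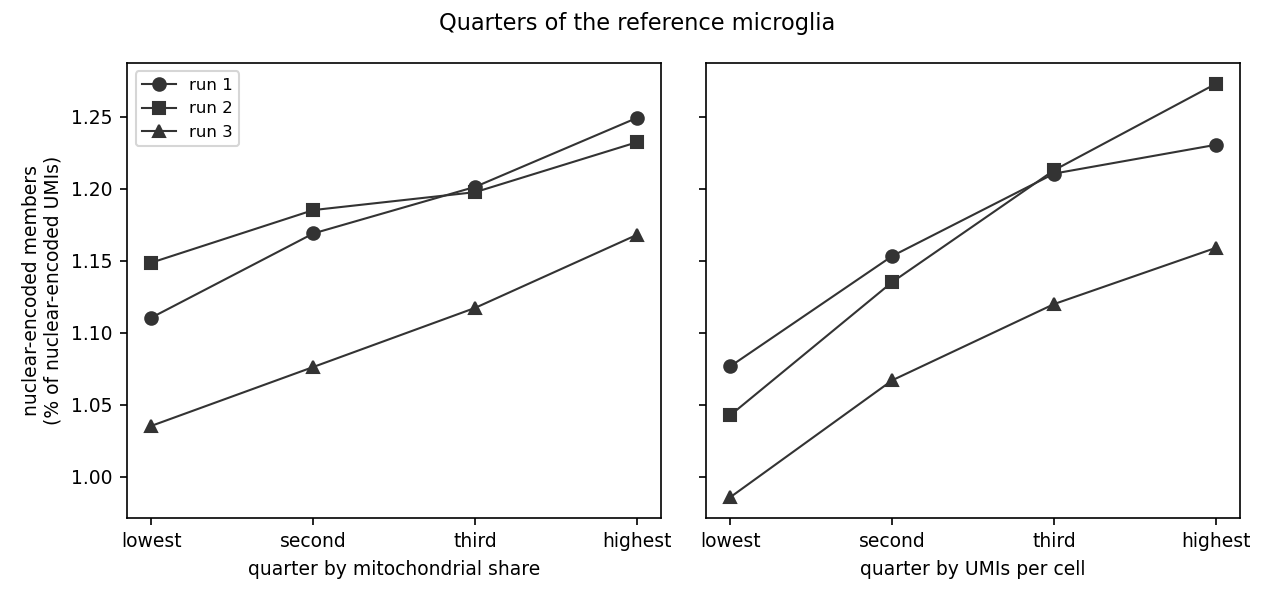
Share of nuclear-encoded members in reference microglia, as a percentage of nuclear-encoded UMIs (vertical axis, not from 0), in 4 equal groups of cells by mt- share (left) and by UMIs per cell (right); each line is 1 run. In every run the share increases from the lowest to the highest group of both splits.

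Other mitochondrial genes were taken from lists of pathways that adjoin the chain, and their counts stand beside the 8.66% of all genes called higher in lipid-phagocyte cells. There, both electron carrier genes of the list, Cycs (cytochrome c, 0.59) and Cyc1 (cytochrome c1, 0.49), were higher. Of 4 complex II genes only Sdhb, the iron-sulfur subunit, was higher (0.63, adjusted p = 0.000118). Of 7 carriers and pores 3 were higher, with the ADP/ATP carrier Slc25a5 at 662 ± 164 CPM against 376 ± 45.0 (SD, n = 3 runs; log2 difference 0.86, edgeR adjusted p = 1.39e-19) and Ucp2, an inner membrane carrier, at 0.67.

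Assembly and expression factors had shares called higher near or below that background. Of 37 assembly factors outside the member prefixes 2 (5.41%) were higher in lipid-phagocyte cells, Sco2 (copper delivery to complex IV, 0.99) and Uqcc2 (complex III assembly, 0.75). Of 17 genes of mitochondrial transcription and DNA maintenance 1 (5.88%) was higher, Slirp, which binds mitochondrial messages (0.60). Of 77 mitochondrial ribosomal proteins 7 (9.09%) were higher. Outside these factors, 2 of 13 citric acid cycle genes were higher, Mdh2 (0.62) and Ogdh (0.57), a share above the background but on few genes. Of 7 biogenesis regulators none was higher, and Nrf1 was the one that was lower (edgeR).

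In chemokine-high cells the only genes of these lists past the test were 2 carriers, Slc25a5 (0.51, adjusted p = 0.00282) and the outer membrane pore Vdac2 (0.43, adjusted p = 0.0228). Interferon-responsive cells had none (edgeR). In MHC class II-high cells Cycs (1.18), Slirp (1.14), Fh1 of the citric acid cycle (1.42) and 8 of 77 mitochondrial ribosomal proteins (10.4%, near the 8.10% of all genes) were higher. Cycling cells had Fh1 higher (1.39) and Suclg1 of the same cycle lower (-1.12), with 7 of 77 mitochondrial ribosomal proteins higher (9.09%, near the 9.44% of all genes) and 1 lower. Ucp2 was higher in border macrophages (0.95) and MHC class II-high cells (1.40), and in cycling cells it was lower (-1.14, SE 0.20, adjusted p = 2.20e-07).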

How the data were processed

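Single-cell RNA-seq libraries of hippocampal myeloid cells from 3 runs were read as deposited UMI counts per gene and cell, raw and not normalized, in matrix files whose headers give software versions 3.0.2 and 3.1.0. Cell Ranger, Seurat 4.0 and the mm10 build are named in the submitters' processing notes; how strand was used in counting is not given in the sources used here. The members and the pathway lists were chosen with earlier results of these data known.

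Cells were kept from 1000 UMIs and 500 genes upwards, up to 10% mt- UMIs. Gates were applied in a fixed order and each cell went to the first it met: at least 3 marker genes for most gates, 4 for the astrocyte and reference gates, 5 summed UMIs for MHC class II and 10 for the chemokines. No doublet caller was run; as an alternative, cells holding Xist as well as Y-linked UMIs were removed. UMIs were summed per population and run, with at least 10 cells per run required for a test. Genes used in a gate were not tested but stayed in the library size.

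The fit was edgeR 4.0.16 (R 4.3.3; TMM, filterByExpr, quasi-likelihood test), blocked by run, and p-values were adjusted (Benjamini-Hochberg) over every gene of a comparison. The run pairs the sums because both come from the same library; deviations of same-run sums from their population means correlated between 0.159 and 0.909 over genes. Called means an adjusted p under 0.05. The unit printed is CPM of all UMIs of the sum, computed here. Fitted differences also carry the TMM factor, so they can lie outside the ratios of the printed CPM. The scripts were tested on simulated data.

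Named genes were, per comparison and direction, the up to 8 nuclear members with the largest log2 change among those called, at 20 CPM or more in the higher population and in the same direction in all 3 runs. The 13 mt- members and the tissue isoform pairs were always named, and up to 2 genes per pathway list and direction. Genes described for their role in a complex, the NRF1-matched genes, the neighbours of Cox6a2 and the genes lowered in single runs were added after their values were seen. Many respiratory chain genes have processed pseudogenes, and how reads shared with them were counted is not given in the sources used here.

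Alternatives were DESeq2 1.42.0, other scalings, no filter, no run block, thinning to 2000 UMIs, mt- limits of 5% and 20%, other marker minimums, and leaving out each run. Those added after seeing the data were 1 marker fewer, thinning after gating, thinning with another scaling, a reference of the deepest of 4 equal groups of cells, and the lipid-phagocyte gate without Itgax.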

Additional observations from a re-analysis of the deposited data

How the results depend on the processing

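In the following, counts are members called in either direction at an adjusted p under 0.05. The share of all genes called under each alternative is not given, here or for the alternatives described earlier. A change in these counts therefore cannot be read as particular to the members. In lipid-phagocyte cells (45 nuclear, 13 mitochondrial), the nuclear count was 0 and the mitochondrial 2 with cells thinned to 2000 UMIs before gating, which left 17, 18 and 13 cells. The nuclear count was 2 with that thinning and the nuclear library size, 11 with thinning after gating, 20 at a 5% mt- limit and 22 with 1 more marker. Without the run block 8 nuclear and 8 mitochondrial members were called. In chemokine-high cells (0 nuclear, 10 mitochondrial), the mitochondrial count was 0 without the block, at a 5% mt- limit and with thinning before or after gating, 2 with thinning and the nuclear library size, and 3 with 1 marker fewer. Thinning before gating gave 1 nuclear member, lower.

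In MHC class II-high cells (34 and 2), the nuclear count was 6, 7 and 1 with thinning before gating, thinning with the nuclear library size and thinning after gating. The mitochondrial count was 4 by DESeq2, 5 with 1 more marker, and 0 or 1 with the nuclear library size, no block, the 5% limit, 1 marker fewer, any thinning or a reference limited to its deepest cells (the deep reference). In border macrophages (21 and 5), the nuclear count was 7 by DESeq2, 9 with the nuclear library size, 3 without the block, 2, 6 and 12 under the 3 thinnings, 11 with 1 more marker or the deep reference, 36 without cells of mixed sex signal and 41 with 1 marker fewer. The mitochondrial count was 3 with the nuclear library size, 2 without the block and 1 at the 5% limit.

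In cycling cells (16 and 2), the nuclear count was 8 by DESeq2, 25 with the nuclear library size, 7 without the block, 1, 6 and 0 under the 3 thinnings and 10 at the 5% limit. The mitochondrial count was 4 with DESeq2 size factors, 10 with the nuclear library size, 8 with that and thinning, 0 without the block, under the other thinnings and at the 5% limit, and 1 with 1 more marker, without cells of mixed sex signal or with the deep reference. In interferon-responsive cells 1 mitochondrial member was called with DESeq2 size factors. For the mt- share groups (50), 28 were called by DESeq2 and by thinning with the nuclear library size, and 0 without the block. For lipid-phagocyte against chemokine-high cells (7), 1 was called by DESeq2, 12 with the nuclear library size, 4 without the filter, 0 without the block, 2 with thinning before gating (either scaling), 3 with 1 more marker, 2 with 1 fewer and 11 without Itgax. The cause of these shifts was not tested, except that leaving out cells, runs or UMIs leaves fewer counts.

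Leaving out each run in turn, the lipid-phagocyte counts ranged from 22 to 36 nuclear and from 11 to 12 mitochondrial. The ranges were 14 to 43 and 0 to 3 in MHC class II-high cells, 1 to 36 and 0 to 6 in border macrophages, 2 to 13 and 0 to 2 in cycling cells, and 0 and 1 to 9 in chemokine-high cells. They were 32 to 50 for the mt- share groups, 1 to 4 for lipid-phagocyte against chemokine-high cells, and 0 for interferon-responsive cells and for the sexes.

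Directions that turned did so under thinning or the 5% limit. With thinning before gating, the log2 difference in lipid-phagocyte cells was -0.93 for Ndufb6, -0.23 for Cox6a1, -0.14 for Atp5g2, -0.23 for Cox8a, -0.068 for mt-Nd6 and -0.055 for mt-Nd5, in MHC class II-high cells -0.024 for Atp5g3 and -0.43 for Ndufb6, and in chemokine-high cells -0.041 for mt-Nd2. With the nuclear library size as well, Ndufb6 was at -0.55 and -0.42 in the first and second population and Atp5g3 at -0.017. With thinning after gating, Ndufb6 was at -0.35 in MHC class II-high cells and Ndufaf2 at -0.011 in cycling cells. At the 5% limit Cox6a2 in MHC class II-high cells was at -9.30, as the cells that held it were left out. None of these turned values passed the test. Cox6a2 in lipid-phagocyte cells stayed between 1.90 and 2.61 in all alternatives and lost its call in the 2 thinnings before gating (adjusted p = 0.485 and 0.542). Rare gates of 12 to 76 cells a run limit the depth of every comparison with the reference.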
